A study of Mus musculus with 2 samples.

Results

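The 10 genes described here form the core of the mammalian circadian clock and its best known output: Arntl (also written Bmal1), Clock, Per1, Per2, Per3, Cry1, Cry2, Nr1d1, Nr1d2 and Dbp. They were taken by symbol from a count table of 21983 genes, and all 10 were found. They were listed as known clock genes, though with earlier results of these data known. All 10 passed the filter of 20 summed counts, with sums between 527 (Arntl) and 7405 (Nr1d2). Primary chondrocytes, the cells that make and keep up cartilage, were cultured from wild-type mice. One library came from cells given recombinant mouse Sparcl1 protein, a secreted matricellular protein, at 50 ng/ml for 3 days. The other came from control cells given PBS for the same 3 days. Each group thus had 1 library, so no difference has a replicate check and no p-value is given. The time of day at harvest and any step that sets the phase of cultured cells are not given in the sources used here.

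The clock is a feedback loop of transcription that runs in almost every cell, chondrocytes included. BMAL1 and CLOCK bind E-box sequences as a pair and switch on the Per, Cry, Nr1d1, Nr1d2 and Dbp genes. PER and CRY proteins return to the nucleus and block the pair, while the REV-ERB receptors encoded by Nr1d1 and Nr1d2 repress Arntl, and more weakly Clock, through a sequence called the RRE. As a result Nr1d1 and Dbp transcripts peak roughly opposite to Arntl in mouse tissues, with the Per transcripts in between and Cry1 later still. In cultures whose cells run out of step, these peaks average out. The question put to these data is whether the 2 cultures stood at similar levels of the opposing genes.

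Both libraries were deep enough for every clock gene to be counted at least 200 times. The Sparcl1-treated library held 26871933 gene counts and the control library 29858851. All 10 chondrocyte markers on a fixed list were detected in both libraries, with summed levels of 12091 CPM in the Sparcl1-treated library and 13814 CPM in the control (CPM, read counts brought to the same library size). The median log2 ratio over them was -0.30, and 9 of 10 lay below 0. The osteoblast markers with at least 20 summed counts were at a median of -0.38, 7 of 7 below 0, and osteoblast markers summed to 6498 CPM in the Sparcl1-treated library and 8467 CPM in the control. Fibroblast and tendon markers summed to 9768 CPM in the Sparcl1-treated library and 11499 CPM in the control, with a median of 0.03 and 5 of 8 above 0. Single collagen genes made most of these sums. In the Sparcl1-treated and control libraries, Col1a1 of the osteoblast list was at 6309 and 8206 CPM. Col1a2 of the fibroblast and tendon list was at 6328 and 7779 CPM, and Col2a1 of the chondrocyte list at 7332 and 8629 CPM. Macrophage markers were also all detected, 12 of 12, with a median of 0.01 and 6 on each side of 0. Their summed level was 2625 CPM in the Sparcl1-treated library and 2308 CPM in the control, a difference made mostly by Lyz2, the lysozyme gene, at 1640 CPM in the Sparcl1-treated library and 1327 CPM in the control. Of 5 endothelial markers 1 reached 20 summed counts. Markers of more than 1 cell type were thus present, and in bulk samples fewer cells of a type and less RNA per cell cannot be told apart. The part of these marker differences in the clock values was not tested.

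Letters of the elements through which the loop closes are found in the start regions of several of these genes and are shown as examples of them. The groups of genes used below follow textbook knowledge of regulation, not these matches. RefSeq start regions of the GRCm38.p6 build, 250 bases before and 50 after each start, were found for 9 of the 10 genes (13 start sites), all but Per2. Each stretch runs 5′ to 3′ on the gene's own strand, with the matched motif in capitals and positions counted from the RefSeq start. Motifs were searched on both strands. The E-box was searched as CACGTG. Its known variant was searched as CACGTT, which reads as AACGTG from the opposite strand of the same site. The D-box, which DBP binds, was searched in a pair of spellings, TTATGTAA and also TTACGTAA. The core of the RRE was searched as AGGTCA.
Arntl, chr7:113207530-113207559, plus strand, RRE core in an exon: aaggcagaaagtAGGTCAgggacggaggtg
Nr1d1, chr11:98775380-98775425, minus strand, E-box variant: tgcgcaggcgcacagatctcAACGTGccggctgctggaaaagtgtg
Nr1d2, chr14:18239158-18239203, minus strand, RRE core: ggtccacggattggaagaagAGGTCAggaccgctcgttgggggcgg
Per1, chr11:69098763-69098808, plus strand, E-box: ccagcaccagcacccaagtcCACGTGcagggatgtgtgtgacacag
Per3, chr4:151044796-151044890, minus strand, 2 D-boxes: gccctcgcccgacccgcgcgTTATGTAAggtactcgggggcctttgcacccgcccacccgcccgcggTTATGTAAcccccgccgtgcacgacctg
Cry1, chr10:85185089-85185153, minus strand, E-box variant and E-box: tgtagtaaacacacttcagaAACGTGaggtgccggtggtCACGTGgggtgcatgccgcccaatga

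The Arntl RRE core lay at positions 32 to 37 and ended an 11-base stretch, AAAGTAGGTCA, whose letters occurred on either strand in 7 of 32851 start regions (0.0213%). The core alone was common, in 16.3% of start regions. The E-box occurred in 7.15%, its variant in 4.68% and a D-box in 1.06% of them. Cry2 had the variant at position -166, 1 of 3 Clock start regions had an RRE core at position -119, and the Per1 region with the E-box also had an RRE core at position -137. The Dbp start region held none of these letters, which says nothing of elements outside this window. Of the 6 windows shown above, that of Arntl lies after the RefSeq start in an annotated exon. The others lie before the start and overlap no exon of their gene in GENCODE M21, where the Per1 window is intronic.

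Levels of the 10 transcripts spanned more than an order of magnitude in both libraries. Per kilobase of annotated exon, Nr1d1 was highest, with 31.2 CPM per kb in the Sparcl1-treated library and 26.9 CPM per kb in the control. Dbp and Nr1d2 were close to it, with 26.7 and 23.2 CPM per kb in the Sparcl1-treated library, against 24.1 and 25 CPM per kb in the control. A middle group followed. Its members lay between 3.59 (Cry1) and 8.33 (Cry2) CPM per kb in the Sparcl1-treated library and between 3.89 (Cry1) and 8.26 (Cry2) CPM per kb in the control. Arntl was the lowest, with 1.08 CPM per kb in the Sparcl1-treated library and 1.38 CPM per kb in the control. In the control library, neighbours among Nr1d1, Nr1d2 and Dbp had overlapping counting intervals, as did the neighbours Per1, Clock and Per2. In the Sparcl1-treated library only Per2 and Clock, the neighbours at places 6 and 7, overlapped. Dbp stood at place 2 and Nr1d2 at place 3 there, and Nr1d2 at place 2 and Dbp at place 3 in the control. With the longest transcript as gene length, Dbp came first and Nr1d1 next in both libraries, so the order at the top rests on the length used.

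**Figure D1:**
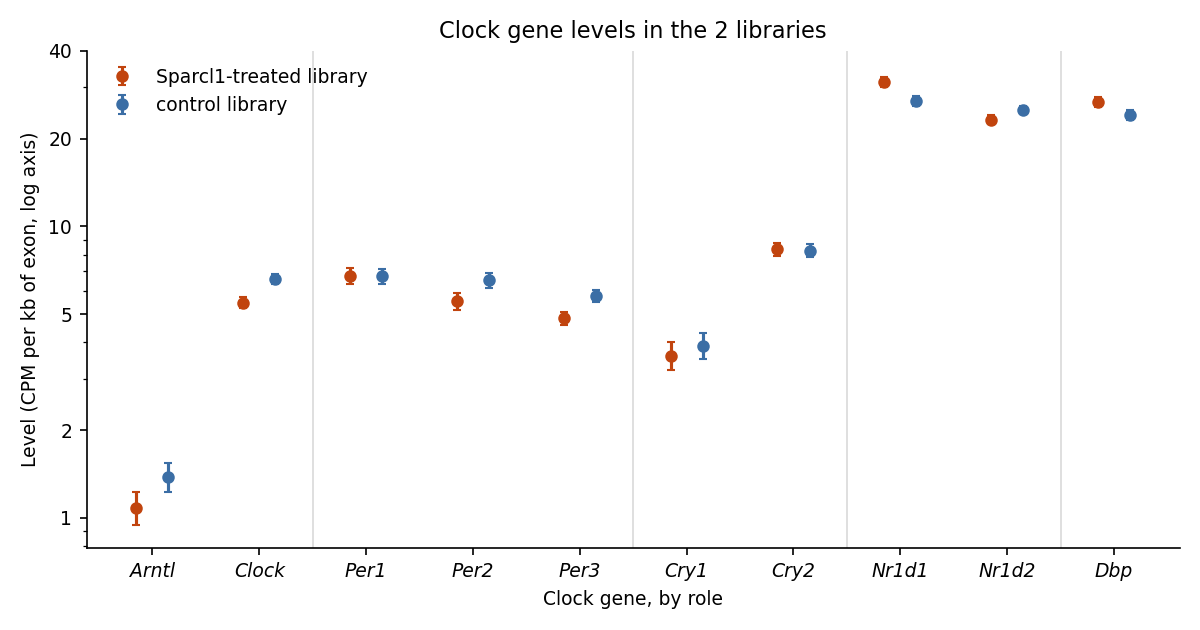
Level of each clock gene in CPM per kb of exon (log axis), Sparcl1-treated library in red and control library in blue, with exact 95% Poisson intervals that cover counting error only. Nr1d1, Nr1d2 and Dbp lie between 23.2 and 31.2 CPM per kb in both libraries, and Arntl at 1.08 and 1.38 CPM per kb is the lowest in both.

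Between the libraries the clock genes differed little in size. None of the 10 passed a rule of size that asks for a 2-fold difference and a 95% counting interval that excludes equality, against 1.9% of the 13317 genes with at least 20 summed counts. None passed at 1.5-fold either, where the background was 4.67%. At a looser limit, a difference of log2 0.32 or more, 1 of 10 passed, Arntl, in the lower direction, where 5.77% of all genes were called lower and 11.7% in either direction. The median log2 ratio of the 10 genes, Sparcl1-treated over control, was -0.11, and that of all 13317 genes was 0.00. The members ran from -0.35 (Arntl) to 0.21 (Nr1d1), with 6 below 0 and 4 above. All 10 lay inside the central 95% of the 11194 genes with at least 200 summed counts, which ran from -0.42 to 0.42. Counting intervals excluded 0 for 7 of the 10, 5 lower and 2 higher. The same held for 43.7% of the 8239 genes whose summed counts lay within the range of the members. These intervals treat reads as independent and cover counting error only.

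**Figure D2:**
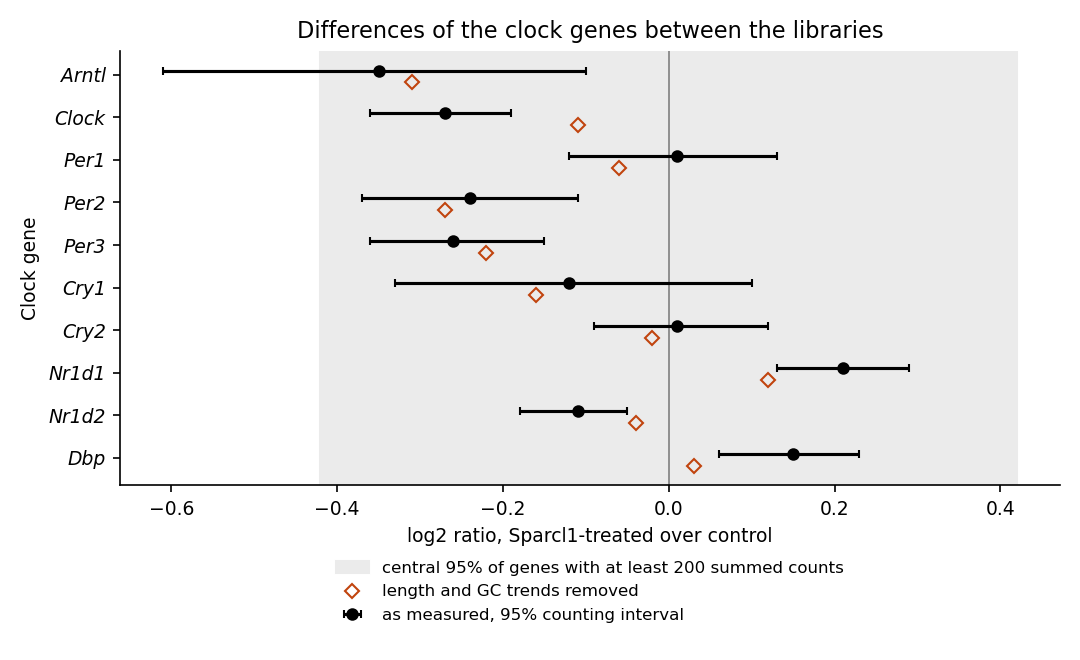
The log2 ratio of each clock gene, Sparcl1-treated over control, as measured (black, with exact 95% counting intervals) and with smooth trends with exon length and GC content removed (open diamonds). All 10 measured values lie within the grey band from -0.42 to 0.42 that holds the central 95% of genes with at least 200 summed counts.

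As measured, Arntl and Clock of the positive limb had the lowest ratios of the 10 genes. Clock could not be told from Per3 (-0.26) by counting error. With length and GC trends removed, Clock stood at -0.11, above Per2 (-0.27), Per3 (-0.22) and Cry1 (-0.16). Arntl, which encodes BMAL1 (chromosome 7, 113207465 to 113314126, GENCODE M21 on GRCm38), had 221 counts (8.13 CPM) in the Sparcl1-treated library and 306 counts (10.4 CPM) in the control. Its log2 ratio was -0.35 (95% counting interval -0.61 to -0.10), a level 21.7% below the control, and 3.96% of genes with at least 200 summed counts had a ratio at or below this. The Arntl ratio is the least well fixed of the 10, since Arntl had the fewest reads. Clock (chromosome 5, 76209868 to 76304792), the partner of BMAL1, had 2040 counts (75 CPM) in the Sparcl1-treated library and 2677 counts (90.7 CPM) in the control, a log2 ratio of -0.27 (-0.36 to -0.19). A ratio this low or lower was found in 7.08% of genes. Npas2, which can stand in for CLOCK, had 141 and 160 counts in the Sparcl1-treated and control libraries (-0.07, -0.40 to 0.27), and the BMAL1 paralog Arntl2 had 194 and 197 (0.10, -0.20 to 0.39). Counting intervals thus set Arntl and Clock below equality but included it for their paralogs. The wide Npas2 interval also holds the Clock value, so no difference between these 2 genes is shown. With length and GC trends removed, Npas2 stood at -0.09, close to Clock.

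The 3 period genes, whose products carry the repressor complex into the nucleus, did not share one ratio. Per1 (chromosome 11, 69095217 to 69109960), the member that answers fastest to outside signals, had 1036 counts (38.1 CPM) in the Sparcl1-treated library and 1118 counts (37.9 CPM) in the control, a log2 ratio of 0.01 (-0.12 to 0.13). Per2 (chromosome 1, 91415982 to 91459324) had 883 counts (32.5 CPM) in the Sparcl1-treated library and 1129 counts (38.3 CPM) in the control, a log2 ratio of -0.24 (-0.37 to -0.11). Per3 (chromosome 4, 151003652 to 151044665) had 1262 counts (46.4 CPM) in the Sparcl1-treated library and 1635 counts (55.4 CPM) in the control, a log2 ratio of -0.26 (-0.36 to -0.15). Per2 and Per3 thus stood 15.2% and 16.3% below the control, while Per1 was level. The ratio of Per1 to Per2 reads differed between the libraries by log2 0.24 (0.07 to 0.42) and that of Per1 to Per3 by 0.26 (0.10 to 0.43), which counting error does not cover. Per2 and Per3 differed from each other by only 0.02 (-0.15 to 0.19).

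The cryptochromes, which give the repressor complex its strength, had counting intervals that included equality. Cry1 (chromosome 10, 85131700 to 85185064), the later and stronger repressor, had 326 counts (12.0 CPM) in the Sparcl1-treated library and 383 counts (13.0 CPM) in the control, a log2 ratio of -0.12 (-0.33 to 0.10). Cry2 (chromosome 2, 92403646 to 92434043) had 1432 counts (52.6 CPM) in the Sparcl1-treated library and 1540 counts (52.2 CPM) in the control, a log2 ratio of 0.01 (-0.09 to 0.12). The Cry1 interval holds equality and also differences down to log2 -0.33, so neither is excluded at this depth. Ciart, which encodes the repressor CHRONO, had the highest ratio of the repressors, with 199 counts in the Sparcl1-treated library and 153 in the control (0.50, 0.19 to 0.81). Its start region on chromosome 3 holds 3 E-boxes and is shown for comparison, with 5 of its bases in the annotated first exon. The start regions of Per1 (0.01) and Cry1 (-0.12) also hold an E-box, and that of Dbp (0.15) holds none. Any bearing of E-boxes on the ratios was not tested.
Ciart, chr3:95882247-95882364, minus strand, E-boxes in capitals: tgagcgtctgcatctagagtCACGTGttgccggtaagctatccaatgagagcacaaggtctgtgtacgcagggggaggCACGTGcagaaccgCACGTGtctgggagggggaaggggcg

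The 2 REV-ERB genes lay on opposite sides of equality. Nr1d1, encoding REV-ERBα (chromosome 11, 98767932 to 98775333), had 2613 counts (96.1 CPM) in the Sparcl1-treated library and 2442 counts (82.8 CPM) in the control, a log2 ratio of 0.21 (0.13 to 0.29) and a level 16.1% above the control. Nr1d2, encoding REV-ERBβ (chromosome 14, 18204054 to 18239127), had 3408 counts (125 CPM) in the Sparcl1-treated library and 3997 counts (135 CPM) in the control, a log2 ratio of -0.11 (-0.18 to -0.05). The Nr1d1 to Nr1d2 read ratio differed between the libraries by log2 0.33 (0.22 to 0.43). A ratio as high as that of Nr1d1 was found in 12.1% of genes with at least 200 summed counts. Among the ROR receptors that compete with the REV-ERBs for the RRE, Rora had 1936 and 2297 counts in the Sparcl1-treated and control libraries (-0.13, -0.22 to -0.04). Rorb had 6 counts in each library, too few to compare.

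Dbp, a transcription factor of the PAR bZIP family that acts on D-boxes, is the most direct readout of the E-box side of the loop. Dbp (chromosome 7, 45705088 to 45710203) had 2171 counts (79.8 CPM) in the Sparcl1-treated library and 2128 counts (72.1 CPM) in the control, a log2 ratio of 0.15 (0.06 to 0.23). Its relatives stood near equality: Tef at -0.04 (-0.10 to 0.02), from 4337 and 4843 counts in the Sparcl1-treated and control libraries, and the rare Hlf at 0.12 (-0.48 to 0.71), from 50 counts in each. Nfil3, which represses from the same D-boxes, stood at 0.02 (-0.13 to 0.17), from 686 counts in the Sparcl1-treated library and 735 in the control. The D-box factors thus differed by little more than counting error, with Dbp the one whose interval excluded 0.

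Some of these counts could hold reads of a neighbour, because the strand setting of the counting was not given in the sources used here. The 3′ end of Nr1d1 overlaps Thra, the thyroid hormone receptor alpha gene on the opposite strand, over 263 exonic bases, 8.55% of Nr1d1 exon length. Thra had 1845 counts in the Sparcl1-treated library and 2229 in the control, a log2 ratio of -0.16 (-0.25 to -0.07), on the other side of equality from Nr1d1. Dbp overlaps Sphk2, a sphingosine kinase gene on the opposite strand, over 539 bases, 18% of Dbp exon length. Sphk2 was equal between the libraries within counting error (0.00, -0.12 to 0.13), from 1013 counts in the Sparcl1-treated library and 1097 in the control. Cry2 shares 295 exonic bases (4.67%) with the antisense transcript D930015M05Rik, and Arntl shares 33 (0.439%) with Gm45355. The other 6 members share no exonic base with another annotated gene, and their median log2 ratio was -0.18.

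The balance of opposing genes can be read within each library, where the library size cancels. For each read of Arntl, Nr1d1 had 11.8 reads in the Sparcl1-treated library and 7.98 in the control, a difference of log2 0.57 (exact conditional 95% interval 0.30 to 0.84), or 1.48-fold. Dbp had 9.82 reads per Arntl read in the Sparcl1-treated library and 6.95 in the control (0.50, 0.23 to 0.77). These were the widest of the 9 ratios to Arntl. Cry2 and Per1 also had intervals above 0, each at 0.36 (0.09 to 0.64 for Cry2, 0.08 to 0.64 for Per1). Nr1d2 (0.24, -0.02 to 0.50), Cry1 (0.24), Per2 (0.11), Per3 (0.10) and Clock (0.08) had intervals that included 0. All 9 estimates lay above 0, which follows from Arntl having the lowest ratio of the 10 genes and adds nothing to it. All 9 share the Arntl counts.

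Ratios to Clock, which had far more reads than Arntl, had narrower intervals. Nr1d1 had 1.28 reads per Clock read in the Sparcl1-treated library and 0.912 in the control (log2 0.49, 0.37 to 0.61). Dbp had 1.06 reads per Clock read in the Sparcl1-treated library and 0.795 in the control (0.42, 0.30 to 0.54). As measured, 5 of 8 ratios to Clock had intervals above 0, those of Nr1d1, Dbp, Cry2, Per1 and Nr1d2. Most of these values shrank with length and GC trends removed, as given below. Per2 and Per3 were close to Clock, at 0.04 (-0.12 to 0.19) and 0.02 (-0.12 to 0.15). Over all 45 pairs of the 10 genes, 25 had a ratio whose counting interval excluded equality between the libraries. All 45 share the counts of the same 10 genes. The share over pairs of other genes was not computed for these counts of ratios. Among single genes in the count range of the members, 43.7% had intervals that excluded 0. That share is not a like measure, since a pair carries the differences of both its genes. The counts of ratios thus have no background and are not read as a result.

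**Figure D3:**
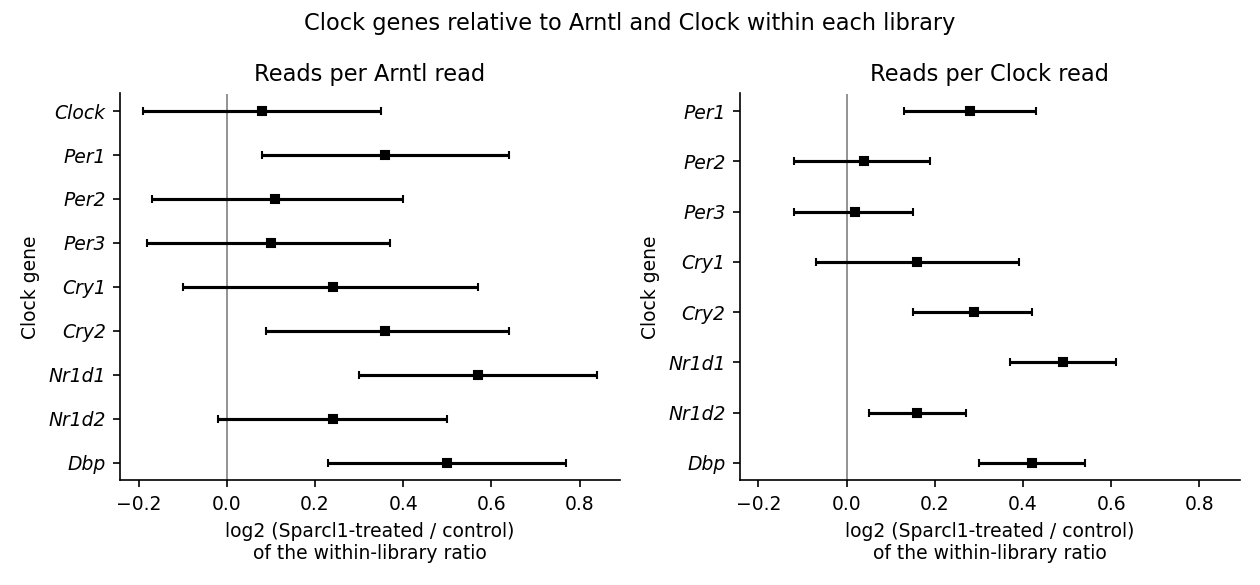
Reads of each clock gene per Arntl read (left) and per Clock read (right), as log2 of the Sparcl1-treated over the control library, with exact conditional 95% intervals that cover counting error only. Nr1d1 and Dbp lie farthest to the right in both panels, at 0.57 and 0.50 against Arntl and 0.49 and 0.42 against Clock, while Per2 and Per3 lie at 0.11 and 0.10 against Arntl and 0.04 and 0.02 against Clock.

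Grouped by the element known to drive them, whatever the windows above hold, the 6 E-box genes Per1, Per2, Per3, Nr1d1, Nr1d2 and Dbp had a median log2 ratio of -0.05, and the RRE genes Arntl and Clock a median of -0.31, a difference of 0.26. Cry1, which is known to answer to both elements, was left out. The E-box group was itself divided, with 3 of 6 ratios above 0. Widening the groups to 13 E-box genes (adding Cry2, Tef, Hlf, Ciart, Bhlhe40, Bhlhe41 and Usp2) and 4 RRE genes (adding Npas2 and Nfil3) gave medians of 0.12 and -0.17. Of the 13 E-box genes 9 had ratios above 0, and of the 4 RRE genes 1 did. In the usual order of peaks, the early transcripts Nr1d1 (0.21), Ciart (0.50) and Dbp (0.15) had ratios above 0, and the later Per2 (-0.24) and Cry1 (-0.12) and the opposite Arntl (-0.35) had ratios below 0. Per3 (-0.26) and Nr1d2 (-0.11), which peak soon after Dbp, were also below 0. Per1 (0.01), Cry2 (0.01) and Tef (-0.04), not placed in this order, lay near 0. With length and GC trends removed, Nr1d1 was at 0.12, Ciart at 0.43 and Dbp at 0.03. A single time point in 1 culture per group gives levels and not a phase or an amplitude.

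The ratios of the 10 genes also followed the length and base composition of their transcripts. Across the 10 members the log2 ratio correlated with exon length at Spearman's rho -0.78 and with GC content at 0.76 (n = 10 genes read from the same 2 libraries). Across 11145 genes with at least 200 summed counts the same measures were -0.26 and 0.35. The 2787 longest of those genes had a median of -0.07 and the 2788 shortest 0.06. By GC content, the 2787 genes richest in GC had a median of 0.08 and the 2787 poorest -0.09. Clock has 13727 exonic bases and 40.9% GC, whereas Nr1d1 has 3077 and 56.8% and Dbp 2993 and 61.6%.

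With smooth trends on both properties removed from the whole table, the clock values drew closer together. Clock stood at -0.11 in place of -0.27, Dbp at 0.03 in place of 0.15, Nr1d1 at 0.12 in place of 0.21 and Nr1d2 at -0.04 in place of -0.11. Arntl (-0.31), Per2 (-0.27), Per3 (-0.22) and Cry1 (-0.16) stayed within their counting intervals, while Per1 and Cry2, near 0 before, came to -0.06 and -0.02. The difference between the E-box and RRE medians was 0.16 in place of 0.26, and 0.11 in place of 0.29 with the widened groups. The widened E-box group then had a median of 0.00, with 6 of the 12 genes that had such a value above 0. Nr1d1 relative to Arntl was at 0.43 in place of 0.57, and Dbp relative to Clock at 0.14 in place of 0.42. Also relative to Clock, Nr1d1 was at 0.23, Cry2 at 0.09, Nr1d2 at 0.07 and Per1 at 0.05. Cry1 (-0.04), Per3 (-0.11) and Per2 (-0.15) then lay below 0 relative to Clock. The size of the shift between opposing genes therefore depends on whether these trends are left in.

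**Figure D4:**
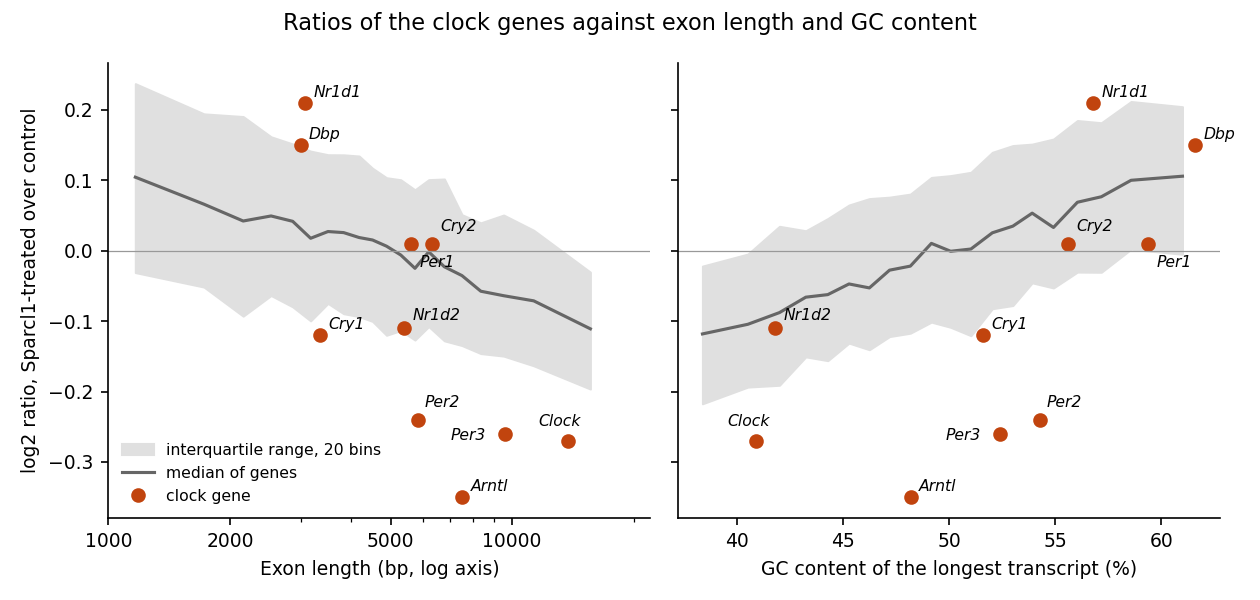
The log2 ratio, Sparcl1-treated over control, of the 10 clock genes (red points) against exon length (left, log axis) and GC content (right), over the median (line) and interquartile range (band) of genes with at least 200 summed counts in 20 bins. Long, GC-poor Clock (-0.27) and short, GC-rich Nr1d1 (0.21) and Dbp (0.15) lie on the same side of 0 as genes like them, whereas Arntl, Clock, Per2 and Per3 lie below the band in both panels.

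Beyond the core, 70 further genes of wider clock lists had at least 20 summed counts, with a median log2 ratio of 0.01 and 35 values on each side of 0. Of these 1 was higher and 1 was lower by the 2-fold rule (2.86%, against 1.9% of all genes), and both were on the list of genes that answer to glucocorticoids, hormones that reset clocks in culture. The helix-loop-helix repressors, which compete for E-boxes, both had ratios above 0: Bhlhe40 at 0.18 (0.10 to 0.26), with 2700 counts in the Sparcl1-treated library and 2586 in the control, and Bhlhe41 at 0.14 (0.04 to 0.24), with 1580 and 1557. Those 2 values were 0.17 and 0.17 with length and GC trends removed.

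The enzymes that set clock protein turnover had list medians near equality, with single genes between -0.27 (Huwe1) and 0.29 (Usp2). No member of the 9 kinases and phosphatases passed at the looser limit of 0.32, against 11.7% of all genes. Their median was -0.05 on the log2 scale. Csnk1d, the kinase that marks PER proteins for destruction, had 4899 counts in the Sparcl1-treated library and 5136 in the control (0.05, -0.01 to 0.11). The phosphatase gene Ppp1cb was lowest, at -0.18 (-0.24 to -0.13), and Ppp5c highest, at 0.11 (0.02 to 0.21). Among 8 ubiquitin ligase and deubiquitinase genes the median was -0.09. Huwe1 stood at -0.27 (-0.30 to -0.23) and Fbxw11, a ligase of PER proteins, at -0.13 (-0.19 to -0.06). The deubiquitinase gene Usp2, a clock output in many tissues, had 390 counts in the Sparcl1-treated library and 345 in the control (0.29, 0.08 to 0.51). The 10 corepressor and coactivator genes had a median of -0.06, between Ep300 at -0.16 and Hdac3, the deacetylase that works with REV-ERBs, at 0.04, with Ddb1 at -0.03 and Nono at -0.10.

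Of 10 genes that are rhythmic in many tissues, 8 had ratios above 1, and the list median was log2 0.11. Tspan4 had 9742 counts in the Sparcl1-treated library and 9390 in the control (0.17, 0.13 to 0.21, and 0.05 with trends removed). Nampt, the enzyme of NAD synthesis, had 3975 and 4775 (-0.15, -0.21 to -0.09). Tsc22d3, a target of both the clock and glucocorticoids, had 1085 counts in the Sparcl1-treated library and 1575 in the control (-0.42, -0.53 to -0.31), the lowest of this list. It was the 1 member of 10 past the limit of 0.32 in size, against 11.7% of all genes.

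The 10 glucocorticoid-responsive genes had the widest spread of any clock list, with a median log2 ratio of 0.32. Mt2, a metallothionein gene also induced by zinc and inflammation, was the higher gene, with 2474 counts in the Sparcl1-treated library and 1267 in the control (1.08, 0.98 to 1.18). Zbtb16 was the lower gene, with 16 and 39 counts in the Sparcl1-treated and control libraries (-1.17, -2.11 to -0.30), from few reads. At the limit of 0.32, 5 of the 10 were higher and 2 lower, against 5.97% and 5.77% of all genes. The higher members besides Mt2 were Cebpd (0.58), Dusp1 (0.43), Fkbp5 (0.39) and Sgk1 (0.35), and the other lower member was Tsc22d3. The receptor gene Nr3c1 stood at -0.14 (-0.19 to -0.08) and Klf9 at -0.11 (-0.22 to 0.00). Per1, which glucocorticoids induce directly, was at 0.01, so the list held members on both sides of Per1.

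**Figure D5:**
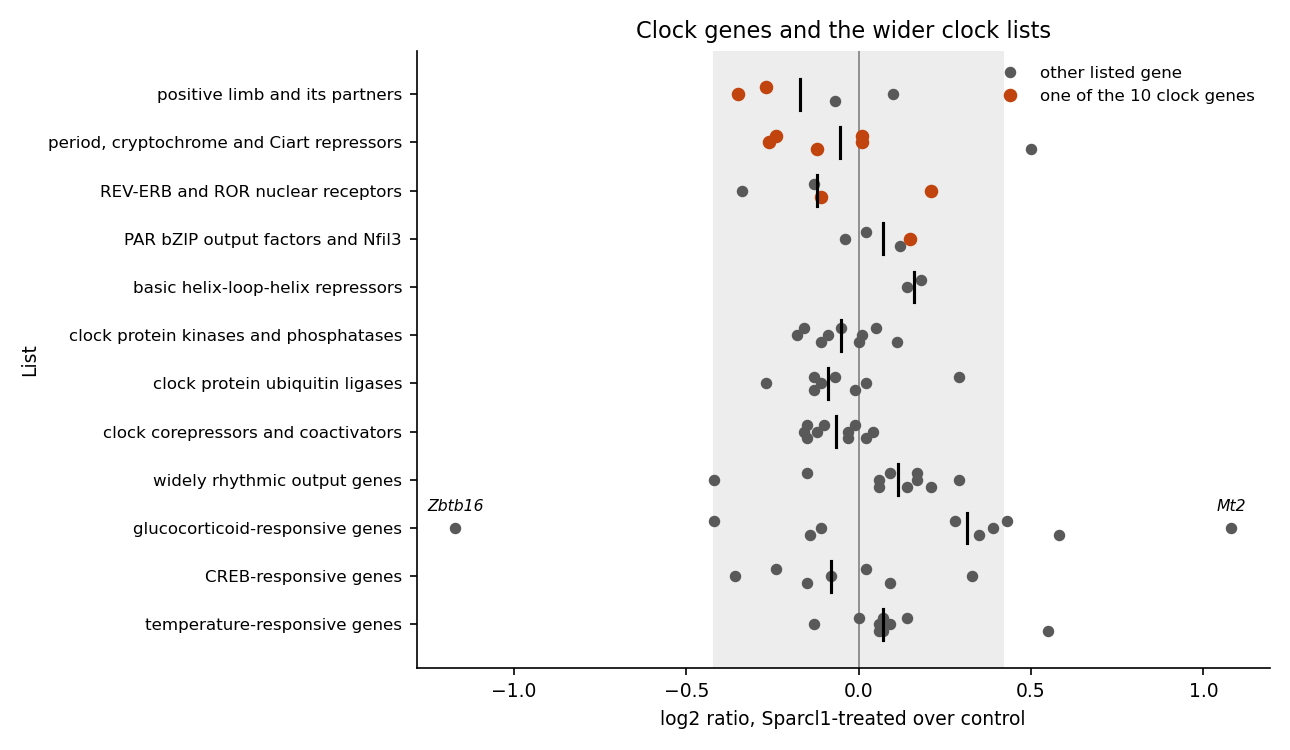
The log2 ratio, Sparcl1-treated over control, of every gene with at least 20 summed counts on 12 clock-related lists, with the 10 clock genes in red, list medians as black bars and the central 95% of genes with at least 200 summed counts (-0.42 to 0.42) in grey. The core and enzyme lists sit inside the grey band except Ciart (0.50), and the glucocorticoid-responsive list runs from Zbtb16 (-1.17) to Mt2 (1.08).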

How the data were processed

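RNA from 1 Sparcl1-treated and 1 control culture was sequenced. The authors deposited raw read counts, listed by gene symbol with a column for each library. Trimmomatic, FastQC, STAR and HTSeq with build mm10 are named in the submitters' processing notes. Their versions, the annotation, the strand setting and the handling of reads with several matches are not given in the sources used here. The members, lists, rules and tests were chosen with earlier results of these data known. Counts were scaled with TMM factors from edgeR 4.0.16 in R 4.3.3 over the whole table, in which 99.6% of symbols matched GENCODE M21 (GRCm38). Ratios have exact 95% Clopper-Pearson intervals on the treated share of a gene's counts. Reads copied by PCR and lacking molecular identifiers are not separate molecules, and all intervals cover counting error only. With 1 library per group no count model was fitted. The ratio and trend steps were run on simulated data as a check of the computation. The simulated counts held counting error only, so that check does not bear on variation between cultures. Length and GC trends were removed by lowess (fraction 0.3, statsmodels 0.14.6), an alternative added after the data were seen. Exon length is the union of annotated exons, and GC that of the longest transcript. Named genes are the 10 members, any listed gene past the 2-fold rule, the 2 most abundant genes of each list and its highest and lowest with at least 200 summed counts, and genes whose exons overlap a member. Other listed genes were named after their values were seen. Other scalings tried were upper-quartile factors, size factors from DESeq2 1.42.0, and the plain totals. The values of 2 listed genes are not reported here.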

Additional observations from a re-analysis of the deposited data

How the results depend on the processing

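No paired analysis was possible because each group has 1 library, and for the same reason no replicate could be left out. Under the other 3 scalings all 30 values of the 10 clock genes stayed within their counting intervals and none changed sign, with total counts adding log2 0.03 to every ratio. With length and GC trends removed, 4 of 10 left their intervals (Clock, Nr1d1, Nr1d2 and Dbp) and Per1 and Cry2 changed sign, near 0. The median over the clock genes ran from -0.18 to -0.08 over all alternatives, and the E-box minus RRE difference from 0.16 to 0.29 with 1 choice changed at a time. With widened groups and trends removed together it was 0.11. No clock gene passed the rule of size at 2-fold or 1.5-fold, with no filter or with at least 100 summed counts, and 1 passed at a log2 limit of 0.32. Of the wider lists 2 genes passed at 2-fold, and 1 with at least 100 summed counts, which removes Zbtb16. At 0.32, 10 of these genes passed (14.3%, against 11.7% of all genes). With the longest transcript as gene length 6 of 10 members kept their place in the level order of the Sparcl1-treated library and 3 of 10 in the control. With exon bases free of other genes, 10 and 8 did. Depth limits Arntl and Cry1 most.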

Other observations

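Other routes by which culture conditions reach the clock gave values near equality for most genes. Among 7 genes that respond to CREB, the factor through which cyclic AMP induces Per1, the median log2 ratio was -0.08. None passed the 2-fold rule, which 1.9% of all genes passed. Crem, which encodes a cyclic AMP-responsive repressor, had 285 counts in the Sparcl1-treated library and 365 in the control (-0.24, -0.47 to -0.01). Pde4b, a phosphodiesterase gene, had 522 and 450 (0.33, 0.15 to 0.52), and Pde10a had 731 and 747 (0.09, -0.06 to 0.23). The kinase gene Sik1 had 190 and 229 counts (-0.15, -0.44 to 0.13).

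Temperature sets the clock of cultured cells, and 9 temperature-responsive genes had a median log2 ratio of 0.07, with 7 above 0. None was past the 2-fold rule, against 1.9% of all genes. The cold-induced RNA-binding protein genes Cirbp and Rbm3 had 817 and 1168 counts in the Sparcl1-treated library, against 972 and 1216 in the control, with log2 ratios of -0.13 (-0.27 to 0.00) and 0.06 (-0.06 to 0.18). The heat shock gene Hspa1b had 498 and 370 counts in the Sparcl1-treated and control libraries (0.55, 0.35 to 0.74), whereas its near-identical neighbour Hspa1a had 101 and 104 (0.07, -0.33 to 0.48). These 2 genes can trade reads, so their separate values are uncertain. The abundant chaperone genes Hspa8 and Hsp90aa1 stood at 0.00 (-0.03 to 0.03) and 0.07 (0.03 to 0.11).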
